A study of Homo sapiens with 6 samples.

Results

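The genes analysed were those that the deposited table annotates with the KEGG pathway DNA replication, 36 of the 31142 genes listed. The 6 RNA-seq libraries, 1 per sample, came from cells labelled SKM-1, a human acute myeloid leukemia line derived from MDS (myelodysplastic syndromes). In 3 samples the cells were labelled as carrying S34F mutant U2AF1 and in 3 as carrying wild-type U2AF1 (WT), and RNA was taken after 96 h. Per the study's methods both forms were FLAG-tagged and delivered by lentivirus, and the line also expresses its own wild-type U2AF1. The WT titles carry a prefix that the study also uses for negative controls, and its methods speak of a vehicle control, and grouping here followed the U2AF1 form that the titles name. The study's text speaks of triplicates and of independent RNA samples. It does not say whether these came from separate cultures, so p-values measure only the spread between these samples.

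Values are FPKM, fragments per kilobase of transcript and scaled to the mapped fragments of a library, which set genes of different length on 1 scale. A gene was tested when its mean over the 6 libraries was at least 1 FPKM, and 34 of the 36 replication genes and 10942 genes in all passed. The approximate depth, read from the FPKM of 1 fragment, was 20.5 to 26.1 M fragments per library. U2AF1 itself had 9.24, 9.48 and 9.18 FPKM in the S34F replicates and 8.67, 8.70 and 7.65 FPKM in the WT replicates, which does not separate the mutant from the wild-type form. Of 14 monocytic and myeloid markers, 9 had a mean under 1 FPKM, with a list median of 0.287 FPKM, and of 14 erythroid markers 0 did, with a list median of 262 FPKM. None of these markers was at 0 in all 6 libraries. The labelled line is myeloid, and several of its usual markers were thus near 0 while globin and other erythroid transcripts were high.

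Before S phase the MCM2 to MCM7 ring is loaded onto origins, and once activated it unwinds the parental duplex ahead of each fork. Polymerase alpha and primase lay down short primers, replication factor C places the PCNA clamp on them, and polymerases epsilon and delta extend the leading and the lagging strand. RPA covers the exposed single strand, and nucleases and a ligase turn Okazaki fragments into a continuous strand. Transcription of many of these genes is switched on at the G1 to S boundary by E2F factors, and U2AF1, the altered factor, is the splicing protein that reads the AG at the end of introns.

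RefSeq promoter windows, 250 bases before to 50 bases after each transcription start on GRCh38.p14, were matched by symbol for 29 of the 36 genes, in 40 windows. The E2F motif was searched on both strands as TTTCCCGC, TTTCGCGC, TTTGCCGC or TTTGGCGC, of which TTTGGCGC and the reverse of TTTCGCGC can overlap. It was present in 14 of the 40 windows, or 35.0%, and in 3.31% of all 35116 windows of this length. A CCAAT box was in 20 of the 40 replication windows and in 34.6% of all windows. The 4 stretches that follow are shown because E2F control at the start of S phase is the textbook link among these genes, and they come from the 4 genes with a match that lies upstream of the start and outside GENCODE exons. They read 5′ to 3′ on the strand of the gene, with the E2F matches in capitals.
PCNA, chr20:5126644-5126711, minus strand: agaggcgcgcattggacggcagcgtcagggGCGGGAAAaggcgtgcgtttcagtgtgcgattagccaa
MCM3, chr6:52284882-52284946, minus strand: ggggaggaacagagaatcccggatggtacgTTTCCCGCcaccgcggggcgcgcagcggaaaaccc
MCM6, chr2:135876558-135876625, minus strand: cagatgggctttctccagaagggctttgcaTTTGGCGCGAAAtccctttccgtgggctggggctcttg
POLA1, chrX:24693751-24693818, plus strand: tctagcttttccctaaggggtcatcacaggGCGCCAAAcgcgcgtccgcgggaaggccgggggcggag
The match begins 59 bases before the start in PCNA, 174 in MCM3, 152 in MCM6 and 137 in POLA1, and in MCM6 a pair of matches on opposite strands overlap. Letters that match a motif describe the sequence and do not show that a factor binds there.

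The FPKM of the replication genes overlapped between S34F mutant and wild-type U2AF1, and larger differences ran between replicates of the same group. Over all genes tested, the groups did not overlap for 7.38%. None of the 34 tested genes was called between S34F and WT, where only 0.585% of all genes were. The biggest fitted difference was that of DNA2, a nuclease and helicase of Okazaki fragments, at 0.23 on the log2 scale. In both groups the replicate numbered 3 held the lower values of most of the 34 genes. A replicate 3 was the lowest library for 33 of them, beside 50.9% of all genes. The sum over the 36 genes was 1052, 1049 and 839 FPKM in S34F replicates 1, 2 and 3 and 1006, 1021 and 853 FPKM in WT replicates 1, 2 and 3. In bulk RNA, fewer cells in S phase and less of each transcript per cell cannot be told apart.

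**Figure D1:**
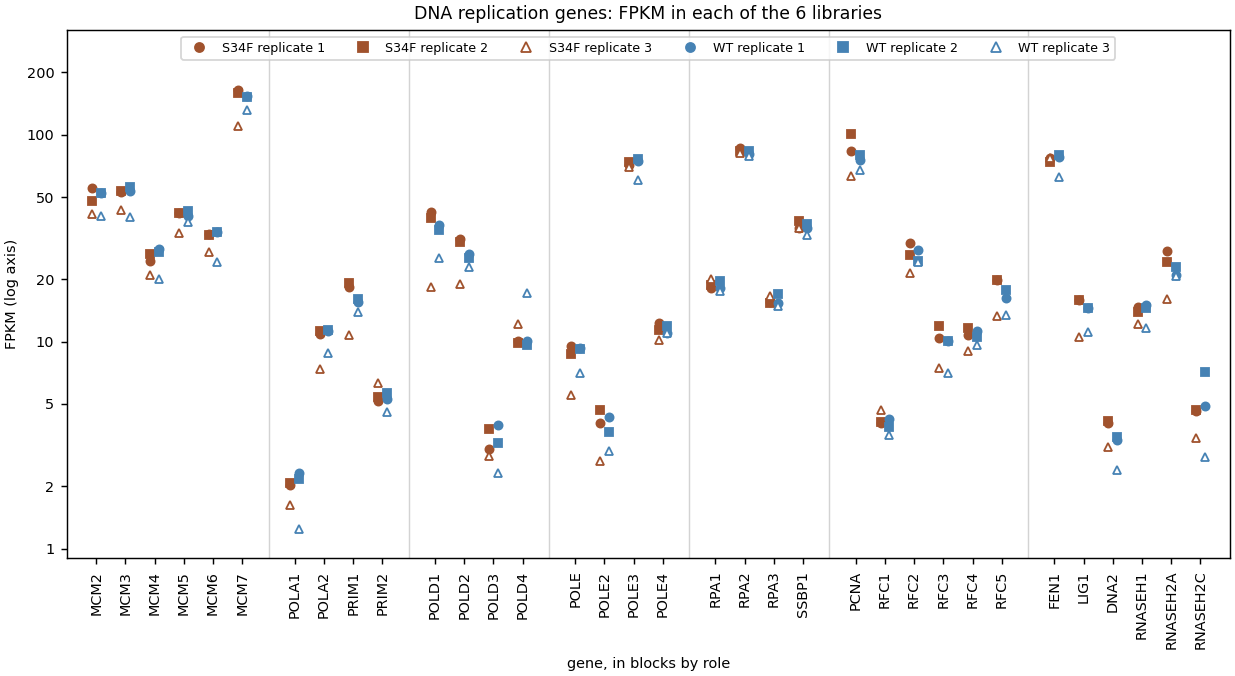
FPKM on a log axis of the 34 tested DNA replication genes in each of the 6 libraries, in blocks by role, with S34F in brown, WT in blue and the libraries numbered 3 as open triangles. MCM7 stands highest at a mean of 145 FPKM and POLA1 lowest at 1.91 FPKM, and the open triangles lie below the filled symbols for most genes.

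The levels spanned a wide range. The 5 genes with a mean over 50 FPKM were MCM7 at 145, RPA2 at 82.2, PCNA at 78.5, FEN1 at 74.8 and POLE3 at 71.2 FPKM. A further 20 lay between 10 and 50 FPKM and 9 between 1 and 10 FPKM. Below the limit of 1 FPKM were RNASEH2B, a non-catalytic subunit of RNase H2, with 0.571, 0.729 and 0.641 FPKM in the S34F replicates and 0.624, 0.632 and 0.531 FPKM in the WT replicates, and RPA4, a relative of RPA2, which was listed at 0 in 5 libraries and at 0.0246 FPKM in WT replicate 2.

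The first question was whether S34F changed the transcription of the replication machinery. limma compared the groups on log2(FPKM + 1), on which fold changes of low genes are understated. A fold change above 1.5 with an unadjusted p under 0.05, the limits of the study, was reached by 0 of the 34 genes, where 0.585% of all genes tested reached it. An unadjusted p under 0.05 alone was reached by 0 of the 34, against 2.39% of all genes, and by 0 with the replicate number as a block, against 4.05%. The groups overlapped for each of the 34 genes, and they did not for 7.38% of all genes. At such shares few of 34 genes would be counted, so counts of 0 do not set the list apart. After Benjamini-Hochberg adjustment 0 of the 10942 genes had an adjusted p under 0.05, with 262 at an unadjusted p under 0.05 from limma. The fitted difference was positive for 22 replication genes and negative for 12, where 54.6% of all genes were positive, with a median of 0.025 beside 0.015 over all genes on the log2 scale. With each library rescaled to the same FPKM sum the split was 28 and 6, the share of all genes that were positive was 63.2% and the median over all genes was 0.048.

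The intervals say how large a difference could be hidden in the fit without a replicate block. In that fit, differences between replicate numbers that both groups share count as spread. For 28 of the 34 genes the 95% confidence interval of the fitted difference lay inside a 1.5-fold change of FPKM + 1 in either direction. Since that scale understates the fold change of low genes, the limits were also converted to ratios of FPKM at the WT level, and 23 of the 34 intervals then lay inside a 1.5-fold change. The 11 that did not were those of POLD1, POLD4, POLE, RFC3, DNA2 and RNASEH2C, which passed it on both scales, and of POLA1, POLA2, PRIM1, POLE2 and RFC5. It was widest for POLD1, the catalytic subunit of polymerase delta, from -0.79 to 0.75 on the log2 scale, and was narrowest for RPA2, from -0.16 to 0.25.

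**Figure D2:**
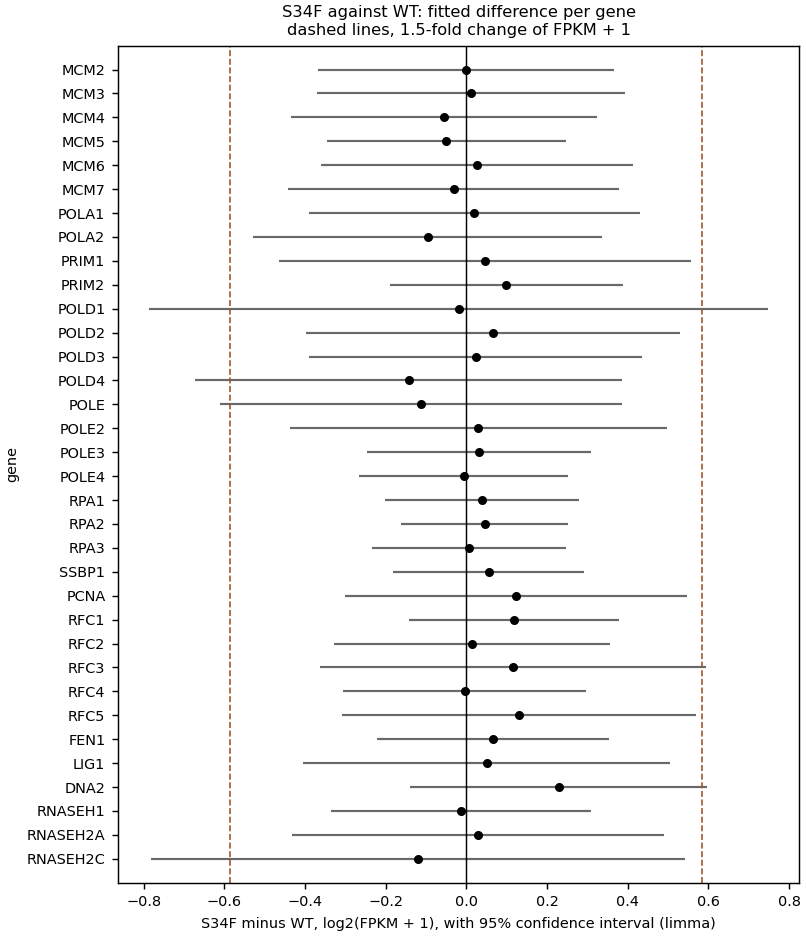
Fitted S34F minus WT difference on log2(FPKM + 1) for the 34 tested genes, with points for the limma estimate and lines for its 95% confidence interval, beside dashed lines at a 1.5-fold change of FPKM + 1. The points lie between -0.14 for POLD4 and 0.23 for DNA2, and each interval includes 0.

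DNA2 (ENSG00000138346, chr10:68414064-68472121 of GRCh38, minus strand) had 4.06, 4.12 and 3.097 FPKM in S34F replicates 1, 2 and 3 and 3.36, 3.45 and 2.39 FPKM in WT replicates 1, 2 and 3. S34F was higher in 3 of 3 same-numbered pairs, but S34F replicate 3 lay below WT replicates 1 and 2, so the groups overlapped. The means were 3.76 ± 0.572 FPKM (SD, n = 3) and 3.07 ± 0.591 FPKM (SD, n = 3). The difference of 0.23 had a standard error of 0.16 and an unadjusted p of 0.183 from limma, the smallest p of the 34 genes. With the replicate block its p from limma was 0.0579. The exact two-sided permutation test gave 0.3, where 3 libraries against 3 cannot go below 0.1. Besides DNA2, the genes higher in S34F in 3 of 3 pairs were RPA2, SSBP1 and RFC3, and POLA2 was lower in 3 of 3. These counts, 4 and 1 of 34, stand beside 13.3% and 12.1% of all genes. Pairs and block both take libraries of the same number as partners, and the values do not tell how replicates 1 and 2 pair.

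The replicative helicase is the ring of MCM2 to MCM7, whose members act in equal numbers. MCM7 (ENSG00000166508, chr7:100092728-100101940, minus strand) had 165, 159 and 110.1 FPKM in the S34F replicates and 154, 153 and 131 FPKM in the WT replicates, the highest level of the list. Its exons share 392 bases with AP4M1 on the opposite strand. The other 5 subunits had group means of 24.0 to 49.8 FPKM, so on this length-corrected scale transcripts of the 6 partners were not equal in amount. MCM2, which contacts parental histones, had 55.5, 47.6 and 41.6 FPKM in S34F and 52.2, 52.2 and 40.4 FPKM in WT. It shares 1113 exonic bases with an antisense gene at a mean of 4.21 FPKM. MCM5, which forms the gate of the ring with MCM2, had 42.02, 41.96 and 33.5 FPKM in S34F and 40.6, 42.8 and 37.8 FPKM in WT. In both, the libraries numbered 3 were lowest within each group. MCM3 had 52.7, 53.7 and 43.1 FPKM in S34F and 53.6, 55.6 and 39.96 FPKM in WT. MCM4 had 24.4, 26.6 and 20.999 FPKM in S34F and 28.1, 27.1 and 20.2 FPKM in WT. MCM6, which forms a catalytic core with MCM4 and MCM7, had 33.002, 32.9 and 27.1 FPKM in S34F and 33.99, 33.7 and 24.2 FPKM in WT. In each of the 6 genes both libraries numbered 3 lay below the 4 others, and fitted differences between the groups ran from -0.06 to 0.03 on the log2 scale. The 6 transcripts summed to 373, 361 and 276 FPKM in S34F and 362, 364 and 294 FPKM in WT.

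Primase and polymerase alpha start each strand. POLA1, the DNA polymerase subunit, was the lowest of the tested genes, with 2.03, 2.08 and 1.63 FPKM in S34F and 2.32, 2.17 and 1.24 FPKM in WT. POLA2, its accessory subunit, had 10.9, 11.3 and 7.39 FPKM in S34F and 11.3, 11.4 and 8.83 FPKM in WT. PRIM1, the catalytic primase subunit (ENSG00000198056, chr12:56731596-56752373, minus strand), had 18.4, 19.2 and 10.8 FPKM in S34F and 15.5, 16.1 and 13.9 FPKM in WT. S34F replicate 3 was the lowest library of PRIM1 and S34F replicates 1 and 2 were the highest, so the S34F libraries enclosed the WT ones. PRIM2, the regulatory subunit (ENSG00000146143, chr6:57314805-57646849, plus strand), went the other way within S34F, with 5.16, 5.39 and 6.28 FPKM, and had 5.28, 5.65 and 4.58 FPKM in WT. The ratio of PRIM1 to PRIM2 was 3.57, 3.56 and 1.72 in S34F and 2.94, 2.85 and 3.04 in WT, so that S34F replicate 3 stood apart from the other 5 libraries. PRIM1 shares 33 exonic bases with NACA and 362 with AC117378.1, and POLA2 shares 2012 with AP000944.2, all on the same strand. AC117378.1 had a mean of 0.269 FPKM and AP000944.2 a mean of 0.170 FPKM. Of the 36 genes, 19 share an exon with another gene, and not all of these overlaps are given here.

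Polymerase delta, the lagging-strand enzyme, held subunits that differed in opposite directions between replicates. POLD1 (ENSG00000062822, chr19:50384204-50418016, plus strand) had 42.3, 39.6 and 18.3 FPKM in S34F and 36.7, 34.6 and 25.3 FPKM in WT. Both libraries numbered 3 were below the 4 others, and S34F replicate 3 was at 44.7% of the mean of S34F replicates 1 and 2. POLD2, the second subunit, had 31.2, 30.2 and 19.1 FPKM in S34F and 26.6, 25.5 and 23.01 FPKM in WT, in the same order. POLD3, which binds PCNA, had 3.03, 3.76 and 2.81 FPKM in S34F and 3.96, 3.23 and 2.33 FPKM in WT. POLD4, the smallest subunit (ENSG00000175482, chr11:67350777-67356972, minus strand), had 10.1, 9.89 and 12.2 FPKM in S34F and 10.1, 9.599 and 17.2 FPKM in WT. It was the only tested gene of the list whose lowest library was not a replicate 3. Its highest libraries were the pair numbered 3, and WT replicate 3 was at 175% of the mean of WT replicates 1 and 2. The ratio of POLD1 to POLD4 was therefore 4.19, 4.01 and 1.502 in S34F and 3.64, 3.601 and 1.47 in WT, and the libraries numbered 3 in both groups did not overlap with the rest. POLD4 shares 650 exonic bases with a same-strand gene, and POLD1 shares 426 with another. Neither of these partners is among the genes listed in the deposited data. How fragments were divided between such genes is not given in the sources used here.

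**Figure D3:**
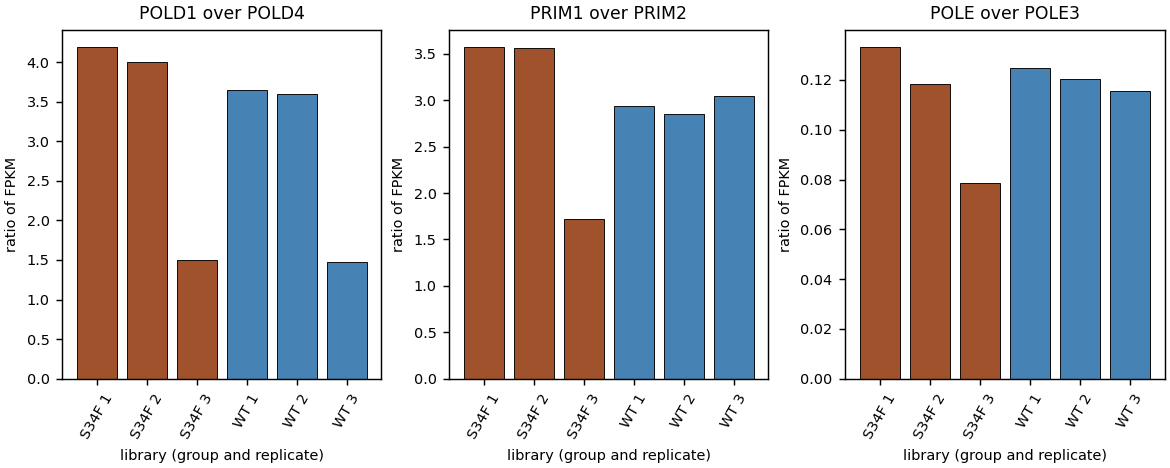
Ratio of the FPKM of a pair of subunits in each of the 6 libraries, as bars from 0, for POLD1 over POLD4, PRIM1 over PRIM2 and POLE over POLE3, with S34F in brown and WT in blue. POLD1 over POLD4 is 1.502 and 1.47 in the libraries numbered 3 and 3.601 or more in the others, while PRIM1 over PRIM2 and POLE over POLE3 are low in S34F replicate 3, at 1.72 and 0.0786.

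Polymerase epsilon pairs a large catalytic subunit with small partners that also occur in chromatin factors. POLE, the catalytic subunit, had 9.55, 8.74 and 5.49 FPKM in S34F and 9.31, 9.202 and 7.02 FPKM in WT. POLE2, a non-catalytic subunit, had 4.06, 4.69 and 2.64 FPKM in S34F and 4.31, 3.66 and 2.97 FPKM in WT. POLE3, a histone-fold subunit, was far more abundant per length, with 71.6, 73.9 and 69.9 FPKM in S34F and 74.7, 76.3 and 60.7 FPKM in WT. POLE4, the histone-fold partner of POLE3, had 12.3, 11.3 and 10.2 FPKM in S34F and 11.1, 11.9 and 11.01 FPKM in WT. S34F replicate 3 was at 60.03% of the mean of the other 2 S34F replicates for POLE and 60.3% for POLE2, but at 96.0% for POLE3 and 86.0% for POLE4. The ratio of POLE to POLE3 was 0.0786 in S34F replicate 3 and 0.116 to 0.133 in the other libraries.

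The single-strand binding proteins varied least. RPA2 (ENSG00000117748, chr1:27891524-27914746, minus strand), the middle RPA subunit, had 86.1, 83.3 and 81.2 FPKM in S34F and 80.8, 83.1 and 78.8 FPKM in WT, a highest to lowest ratio of 1.09. RPA1, the large subunit, had 18.1, 18.8 and 20.1 FPKM in S34F and 18.2, 19.7 and 17.5 FPKM in WT. RPA3, the small one, had 15.6, 15.4 and 16.5 FPKM in S34F and 15.4, 17.01 and 14.9 FPKM in WT. SSBP1, which serves mitochondrial DNA and which KEGG lists in the same pathway, had 35.5, 38.5 and 35.5 FPKM in S34F and 35.3, 37.2 and 32.8 FPKM in WT. WT replicate 3 was the lowest library for each of the 4 genes, but S34F replicate 3 was the highest of the S34F libraries for RPA1 and RPA3. RPA2 had an exact permutation p of 0.2, the smallest of the list, with S34F higher in 3 of 3 pairs and a limma p of 0.621.

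PCNA is the clamp that tethers polymerases to the template, and the 5 RFC subunits load it. PCNA (ENSG00000132646, chr20:5114953-5126626, minus strand) had 83.7, 101 and 63.1 FPKM in S34F and 75.7, 80.2 and 67.7 FPKM in WT. Its S34F libraries held both the highest and the lowest value of the 6, and the difference of 0.12 had a standard error of 0.18 and an unadjusted p of 0.515 from limma. RFC1, the large loader subunit, had 4.06, 4.07 and 4.69 FPKM in S34F and 4.21, 3.85 and 3.54 FPKM in WT, with S34F replicate 3 the highest library. RFC2, RFC3, RFC4 and RFC5 are the small subunits, which also serve alternative clamp loaders. RFC2 had 30.1, 26.3 and 21.4 FPKM in S34F and 27.6, 24.6 and 24.2 FPKM in WT. RFC3 had 10.4, 11.8 and 7.48 FPKM in S34F and 10.1, 10.03 and 7.03 FPKM in WT. The values of RFC4 were 10.7, 11.7 and 9.02 FPKM in S34F and 11.2, 10.6 and 9.59 FPKM in WT. In each of these 3 genes S34F replicate 3 was the lowest of its group. RFC5 had 19.8, 19.8 and 13.2 FPKM in S34F and 16.3, 17.7 and 13.5 FPKM in WT. These 4 small loader subunits had S34F replicate 3 below both other S34F libraries and WT replicate 3 below both other WT libraries. RFC5 shares 186 exonic bases with WSB2 on the opposite strand.

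Okazaki fragment maturation joins nucleases that remove primers to LIG1, the ligase. FEN1, the flap endonuclease, had 77.3, 74.1 and 77.4 FPKM in S34F and 77.97, 79.5 and 62.2 FPKM in WT, and it shares 166 exonic bases with TMEM258 on the opposite strand. WT replicate 3 stood below the other 5 libraries, which lay close together. LIG1 had 15.8, 15.9 and 10.5 FPKM in S34F and 14.6, 14.6 and 11.1 FPKM in WT, with both libraries numbered 3 below the rest. RNASEH1, which removes RNA from RNA-DNA hybrids, had 14.7, 13.9 and 12.2 FPKM in S34F and 15.1, 14.6 and 11.6 FPKM in WT. RNASEH2A, the catalytic subunit of RNase H2, had 27.4, 24.2 and 16.1 FPKM in S34F and 20.99, 23.003 and 20.8 FPKM in WT, and S34F replicate 3 stood below the other 5 libraries. It shares 1123 exonic bases with THSD8 on the same strand, a gene at a mean of 0.0115 FPKM. RNASEH2C (ENSG00000172922, chr11:65714005-65720947, minus strand), a partner subunit, had 4.61, 4.69 and 3.42 FPKM in S34F and 4.896, 7.15 and 2.76 FPKM in WT. It shares 1439 exonic bases with KAT5 on the opposite strand, a gene at a mean of 19.6 FPKM. As no source used here says whether counting used the strand, fragments of the pair may not be told apart.

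The lower values of the replicates numbered 3 were then counted. This pattern was noticed in these data and is given as a description with no test. For 33 of the 34 genes the lowest of the 6 libraries was a replicate 3, 15 in S34F and 18 in WT, beside 50.9% of all genes tested, and the exception was POLD4. S34F replicate 3 lay below both other S34F libraries for 28 genes, where 43.5% of all genes did, and WT replicate 3 below both other WT libraries for 33, where 50.2% did. The median difference of replicate 3 from the mean of replicates 1 and 2 was -0.30 in S34F and -0.31 in WT on the log2 scale, beside 0.0045 and -0.055 over all genes.

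Large differences were more frequent in S34F than in WT, among these genes as over all genes, though the medians were alike. In S34F, 12 genes were lower by over 0.5 on the log2 scale in replicate 3, where 11.7% of all genes were. The biggest of these differences were in POLD1 at -1.12, PRIM1 at -0.74, POLD2 at -0.66, RNASEH2A at -0.65 and POLE at -0.64. In WT, 2 genes were, RNASEH2C at -0.88 and POLA1 at -0.53, where 4.9% of all genes were. The genes with an E2F match in a promoter window, 13 of the tested genes with a window, had medians of -0.51 in S34F and -0.36 in WT, and the 15 tested genes with a window and no match had -0.28 and -0.17. Of the genes with the biggest S34F differences, POLE had an E2F match, and POLD1, PRIM1, POLD2 and RNASEH2A had none. For the CCAAT box, the 14 tested genes with a match had medians of -0.41 in S34F and -0.19 in WT. The 14 without one had -0.33 in both groups. No test was run between these sets.

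**Figure D4:**
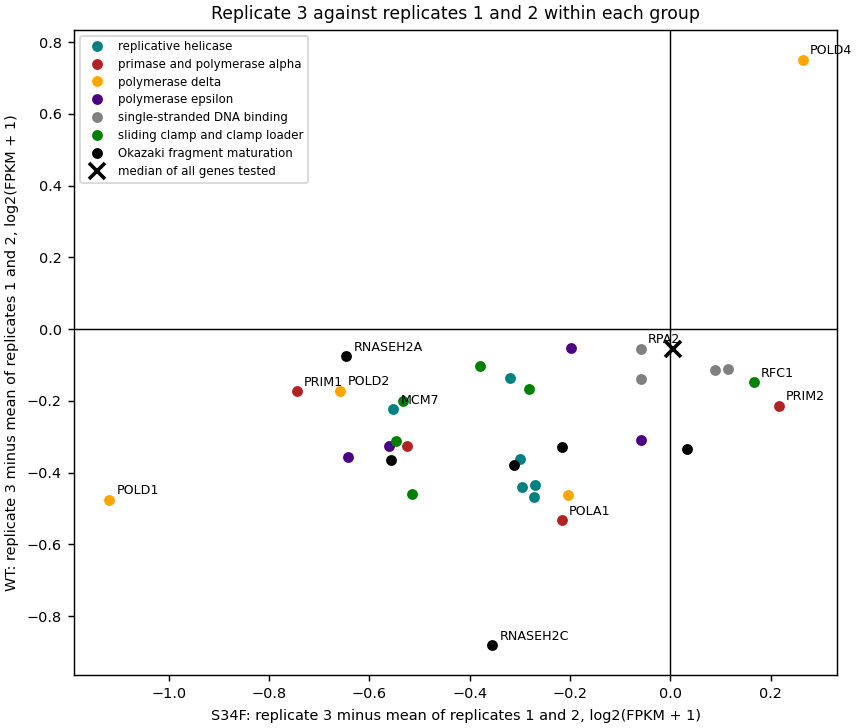
Difference of replicate 3 from the mean of replicates 1 and 2 on log2(FPKM + 1), S34F on the horizontal and WT on the vertical axis, with 1 point for each of the 34 tested genes coloured by role and a cross for the median of all genes tested. Most points lie below 0 on both axes, POLD4 lies above 0 on both at 0.26 and 0.75, and POLD1 lies farthest left at -1.12.

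The direction of S34F against WT also turned with the replicate. Between the mean of replicates 1 and 2 and replicate 3, 27 of the 34 genes changed direction, 14 from higher to lower in S34F and 13 from lower to higher, where 58.6% of all genes did. PRIM1 went from 0.24 to -0.34, POLD1 from 0.20 to -0.45 and RNASEH2A from 0.22 to -0.35 on the log2 scale, whereas PRIM2 went from -0.04 to 0.38. The median coefficient of variation of the genes was 13.9% over the 6 libraries and 4.87% over the 4 libraries numbered 1 and 2, beside 15.4% and 8.83% over all genes.

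Calls at an unadjusted p under 0.05 appeared when libraries numbered 3 were left out. Without S34F replicate 3, and with WT replicate 3 kept, limma gave such a p for PCNA, POLD2, PRIM1 and RNASEH2A, 4 of 34. They were higher in S34F by 0.24 to 0.30 on the log2 scale, and 10.6% of all genes had such a p. Without both libraries numbered 3 it did for DNA2, RFC5, POLD1, POLD2 and PRIM1, 5 of 34, higher in S34F by 0.20 to 0.24, where 16.9% of all genes did. Both shares lie near those of all genes. The summed cell type markers differed with the replicate number too, replicate 3 being highest of its group for myeloid and lowest for erythroid markers. The summed monocytic and myeloid markers were 67.3, 58.1 and 84.1 FPKM in S34F and 80.2, 83.9 and 99.5 FPKM in WT, and the summed erythroid markers were 14084, 13952 and 12295 FPKM in S34F and 13031, 12969 and 11885 FPKM in WT. A few genes made up most of each sum, so the sums do not describe the lists gene by gene. CD68, LYZ and SPI1 had the highest myeloid means, at 46.3, 15.7 and 10.6 FPKM. HBE1, HBG2 and HBG1, all globins, had the highest erythroid means, at 5461, 2166 and 1778 FPKM. Across the 34 genes the replicate 3 difference had a Pearson correlation with GC content of -0.32 in S34F and 0.10 in WT, beside -0.21 and 0.15 over all genes from the same libraries. The sign of this correlation thus differed between S34F and WT. The part of cell makeup and base composition in the result was not tested.

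Genes that act beside the core machinery were taken from 5 further lists, 59 genes of which 56 were tested. None had an unadjusted p under 0.05 from limma, against 2.39% of all genes. Of the 56, 36 had a positive and 20 a negative fitted difference, beside 54.6% positive over all genes, and their median was 0.027 on the log2 scale. Among 21 tested genes of origin licensing and firing, 14 were positive. Their smallest p belonged to GMNN, the inhibitor of licensing, with 16.5, 17.1 and 20.5 FPKM in S34F and 14.6, 16.5 and 13.3 FPKM in WT, a difference of 0.27 and an unadjusted p of 0.0773 from limma. ORC5, an origin recognition subunit, followed with 7.56, 8.55 and 9.23 FPKM in S34F and 7.86, 7.95 and 6.57 FPKM in WT, at a difference of 0.16 and a p of 0.236 from limma. S34F replicate 3 was the highest library for both genes, unlike most of the core machinery.

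In deoxynucleotide supply 6 of 9 tested genes were positive. RRM2, the S-phase subunit of ribonucleotide reductase, had 15.2, 8.75 and 5.55 FPKM in S34F and 8.48, 7.52 and 5.09 FPKM in WT, so S34F replicate 1 was far above the rest and both libraries numbered 3 were lowest. RRM2B, the p53-inducible form of that subunit, had 2.32, 2.005 and 2.95 FPKM in S34F and 1.96, 1.83 and 2.19 FPKM in WT, with both libraries numbered 3 highest of their group. In chromatin assembly behind the fork 4 of 8 genes were positive. ASF1A, a histone chaperone, had 7.09, 7.42 and 8.38 FPKM in S34F and 6.99, 6.16 and 5.68 FPKM in WT, a difference of 0.25 and an unadjusted p of 0.0755 from limma. UHRF1, which guides maintenance methylation, had 7.503, 9.23 and 5.99 FPKM in S34F and 10.2, 9.44 and 6.02 FPKM in WT.

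Fork protection and alternative clamp loading had 6 positive of 9 tested genes, with TOP1, the topoisomerase that relaxes DNA ahead of the fork, at 26.5, 24.2 and 24.1 FPKM in S34F and 23.9, 24.3 and 17.3 FPKM in WT. CHTF8, a subunit of an alternative clamp loader, had 13.5, 15.4 and 17.7 FPKM in S34F and 14.99, 14.1 and 23.7 FPKM in WT, highest in WT replicate 3. Mitochondrial DNA replication had 6 positive of 9, with POLG2, the accessory subunit of the mitochondrial polymerase, at 2.09, 2.07 and 1.84 FPKM in S34F and 3.54, 2.55 and 1.87 FPKM in WT. TFAM, which packages mitochondrial DNA, had 13.4, 11.9 and 10.4 FPKM in S34F and 13.3, 12.4 and 7.49 FPKM in WT. A replicate 3 was the lowest library for 49 of the 56 genes, or 87.5%, beside 50.9% of all genes tested. By list this ran from 6 of 9 in mitochondrial DNA replication to 8 of 8 in chromatin assembly. The median replicate 3 difference was widest for deoxynucleotide supply in S34F, at -0.57, and was -0.30 there in WT. The 5 lists together had -0.36 in S34F and -0.27 in WT, on the same scale as the core genes.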

How the data were processed

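The authors deposited a table of FPKM for 31142 genes in each of the 6 libraries. Its name speaks of raw counts, but the columns are headed FPKM and nearly all values above 0 are not whole numbers, so no count test was run. The submitters' processing notes name StringTie and edgeR, and the genome build is not given in the sources used here. The table also holds the authors' own fold changes, p-values and q-values, which were not used. Gene positions, exons and base composition were taken from GENCODE 29 (GRCh38), matched by gene identifier for 31002 of the 31142 genes.

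S34F was compared with WT by limma on log2(FPKM + 1), with a mean-variance trend and no replicate block, over the 10942 genes with a mean of at least 1 FPKM, and p-values were adjusted by Benjamini-Hochberg over those genes. The call limits were a fold change of 1.5 and an unadjusted p of 0.05. Exact two-sided permutation tests were run over the 6 samples. The FPKM of 1 fragment in single-exon genes gave the approximate depth, which limits the precision of low values and covers counting error only.

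The deviations of same-numbered libraries from their group means correlated at 0.212, 0.174 and 0.380 across genes for the numbers 1, 2 and 3, and the study speaks of pairs. S34F replicate 2 with WT replicate 1 gave 0.197 and S34F replicate 1 with WT replicate 2 gave 0.134, so the values set replicate 3 apart without telling how replicates 1 and 2 pair. As each same-numbered value passed 0.1, the libraries of 1 number were treated as a pair in a further fit, which had that number as a block.

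All 36 genes annotated with DNA replication are named. Of each further list, the 2 genes with the smallest unadjusted p are named, and promoters of at most 6 genes with an E2F motif were to be printed. The genes and lists were chosen with earlier results of these data known. The planned protein stretches were not used here. The alternatives were other scalings, pseudocounts, filters and variance models, the block, and fits without single libraries or without both libraries numbered 3. The limma script was tested on simulated data. R 4.3.3, limma 3.58.1, Python 3.11.15, numpy 2.4.6, pandas 2.3.3 and matplotlib 3.10.9 were used.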

Additional observations from a re-analysis of the deposited data

How the results depend on the processing

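No replication gene passed a fold change of 1.5 with an unadjusted p under 0.05 under any of the alternatives run. Over all genes the number of such calls moved from 64 to 122 with a pseudocount of 0.1, to 22 with a mean of at least 5 FPKM, to between 66 and 180 when 1 library was left out and to 183 without both libraries numbered 3. Replication genes with an unadjusted p under 0.05 went from 0 to between 0 and 4 with 1 library left out, 4 of them without S34F replicate 3, and to 5 without both libraries numbered 3. In the 5 further lists the count went from 0 to between 0 and 5 with 1 library left out, 5 without S34F replicate 3 and 1 without WT replicate 3, and to 5 without both libraries numbered 3. Over all genes these fits gave such a p to 10.6%, 3.19% and 16.9% of genes. The fitted difference of POLD1 ran from -0.23 to 0.35 with 1 library left out, and it turned from -0.019 to 0.20 without both libraries numbered 3, with an unadjusted p of 0.0308 from limma. These fits hold fewer samples, and a fit without only 1 library numbered 3 keeps the other one. The cause was not tested. The median fitted difference of the replication genes ran from -0.053 to 0.092 with 1 library left out, beside -0.0083 to 0.024 over all genes. Between 11 and 30 of the 34 genes were then positive, where 47.8% to 57.3% of all genes were. The count of genes lowest in a replicate 3 library, an alternative set chosen after seeing the data, was 30 to 33 of 34 over the scalings and the pseudocount and 27 of 28 with a mean of at least 5 FPKM. The replicate block changed no call among the replication genes, and it moved the number of genes at an unadjusted p under 0.05 from 262 to 443. With 3 libraries per group and no replicate block, the intervals of 11 replication genes reached past a 1.5-fold change in FPKM.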
